A study of Arabidopsis thaliana with 12 samples.

Results

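The genes described here each had a single alternative splicing event in the deposited table, and that event was a choice between alternative 3′ splice sites (A3). They were selected by event type and by the number of rows of the gene, and the rule read no PSI value. The table holds only events that the authors called differentially spliced, so the number of rows depends on those calls. Of 638 events in 511 genes, 213 were A3 events, and 154 genes had an A3 event as their only row. After 10 genes annotated as kinases and 17 genes given by name were left out, 127 events in 127 genes remained. The events came from an RNA-seq time series of wild-type Arabidopsis thaliana of the ecotype Col-0, made up of 12 samples in 4 groups of 3. All plants were raised for 5 weeks at 16 °C under short days (8 h light, 16 h dark). Plants moved to 25 °C were sampled on days 1, 3 and 5 after the shift, and plants kept at 16 °C were sampled on day 1. Each sample pooled shoot apex tissue from about 10 plants from which the leaves had been removed, labelled as shoot apical meristem and early stage leaves. The table holds no expression levels, so this label could not be checked against marker genes.

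In splicing, an intron ends at an acceptor, nearly always the dinucleotide AG, which follows a stretch rich in pyrimidines. Where an intron can end at either of a pair of acceptors, the downstream exon starts earlier or later and the mRNA gains or loses the bases in between. Acceptors that lie side by side, separated by a single base, form a tandem acceptor (NAGNAG), and in coding sequence their alternation adds or removes a codon without shifting the reading frame. Pairs further apart can shift the frame, bring in a stop codon or change an untranslated region. Tandem acceptors are common in plants and animals, and splicing of many plant genes responds to ambient temperature.

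The measurement is PSI ("percentage of spliced in"), here the fraction of transcripts at an event that belong to a reference isoform, from 0 to 1. The table gives 1 PSI per group, estimated from the reads of its 3 samples merged, so there is no spread between replicates and no test could be run. The read depth behind each value is unknown, and differences are described by size only. All events had been called differentially spliced by the authors on at least 1 day, and the band of very small differences is nearly empty in the plot of PSI at both temperatures. Neither the table nor the study's methods say at which acceptor the reference isoform is spliced. A higher PSI thus says only that this isoform had a larger share. All 3 days at 25 °C are compared with the single 16 °C value, and the plants of days 3 and 5 were older than the 16 °C plants, so temperature and age cannot be told apart on those days. Below, values at 25 °C stand in the order of days 1, 3 and 5.

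Where in a gene the event lies is not in the table. Candidate places were therefore taken from the RefSeq annotation (TAIR10.1), as introns that share a donor and end at different acceptors. Of the 127 genes, 82 (64.6%) had at least 1 such pair, against 43.0% of the other genes in the table, 32.1% of genes with 1 retained intron event and 34.7% of genes with 1 alternative 5′ site event. Exactly 1 pair was annotated in 51 genes, and in all 51 both introns ended in AG. The authors' transcripts were built on the TAIR10 annotation, so an annotated pair is not independent of the event type. It remains a candidate place for the event, not a measured one.

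Sequences are shown first for tandem acceptors, since 3 bases was the most frequent distance. They are the 12 genes with exactly 1 annotated pair, 3 bases apart, and a mean difference in PSI of at least 0.1 in size. Except for DAW1, BUBR1 and AT3G47910, these were picked for display after their values were seen. Each runs 5′ to 3′ on the strand of the gene, from the intron into the exon, with the AG of both acceptors in capitals. The first 6 genes had lower PSI at 25 °C than at 16 °C, and the last 6 higher PSI.
DAW1 both acceptors, chr4:16884301-16884326, + strand: tttgttgtgtgtgttcttAGcAGata
RSH1 both acceptors, chr4:988596-988621, + strand: tcctaatttcattattttAGcAGtta
emb1138 both acceptors, chr5:9285613-9285638, - strand: tgattgatgcctttaaacAGaAGttt
AT1G77800 both acceptors, chr1:29259964-29259989, + strand: gtcttgataactgataatAGcAGcat
AT1G15280 both acceptors, chr1:5253526-5253551, + strand: aaactgcatttgatacacAGcAGagg
CER9 both acceptors, chr4:16333623-16333648, + strand: atatgaatgtatatttttAGcAGgta
BUBR1 both acceptors, chr2:14214803-14214828, - strand: attaatgttctacctaccAGcAGgaa
AT3G47910 both acceptors, chr3:17677425-17677450, - strand: ttcttttttttttgttgtAGtAGtgc
AT5G14440 both acceptors, chr5:4656171-4656196, - strand: ttaatgaactgtgttcgtAGcAGcaa
AT3G62840 both acceptors, chr3:23236109-23236134, - strand: ccttgaatgtcattctttAGcAGgga
WRKY11 both acceptors, chr4:15290456-15290481, - strand: ctatttgatttttaatgaAGcAGgaa
RBP-DR1 both acceptors, chr4:1377405-1377430, - strand: tttcgtttccatttccatAGcAGcct
All 12 lie in coding sequence. The base between the 2 acceptors was C in 10 of them, T in AT3G47910 and A in emb1138. C stood in genes of both directions.

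A further 7 genes complete the 5 highest and 5 lowest mean differences among the 51 genes with 1 annotated pair. Their acceptors were 4 to 115 bases apart, and the AG is again in capitals. The 4 genes with lower PSI at 25 °C come first.
AT1G01910 upstream acceptor, chr1:313450-313472, - strand: atgttttgaacaatttatAGgtg
AT1G01910 downstream acceptor, chr1:313416-313438, - strand: ctgaatctttttctctctAGttc
AT3G46385 upstream acceptor, chr3:17065890-17065912, - strand: ctttcctttttgtgatgtAGtta
AT3G46385 downstream acceptor, chr3:17065793-17065815, - strand: gattttttcttattttacAGtac
EIP9 upstream acceptor, chr5:25736888-25736910, - strand: gagttacttatcctgctcAGgtt
EIP9 downstream acceptor, chr5:25736773-25736795, - strand: tgcttctgttcattcactAGata
AT5G19210 both acceptors, chr5:6461972-6461998, + strand: gtgttgtttggtaatcttAGacAGgtt
AT2G46730 upstream acceptor, chr2:19202209-19202231, + strand: ctggatttctttttttgcAGaac
AT2G46730 downstream acceptor, chr2:19202269-19202291, + strand: tcccatggatttcttctcAGgca
AT5G67540 upstream acceptor, chr5:26945780-26945802, - strand: tgggttttgtatatttacAGtgt
AT5G67540 downstream acceptor, chr5:26945697-26945719, - strand: tttgcattgcaatgatgcAGgag
AT1G77810 upstream acceptor, chr1:29262386-29262408, - strand: ttttttctatgtctttggAGgga
AT1G77810 downstream acceptor, chr1:29262377-29262399, - strand: tgtctttggagggatgacAGgtc
In AT1G01910 and EIP9 the pair lies in the 3′ UTR, 34 and 115 bases apart, outside the coding sequence. AT3G46385 and AT2G46730 are transcribed pseudogenes, of a leucine-rich repeat protein kinase gene and of a galacturonosyltransferase-like gene, with pairs 97 and 60 bases apart in RNA without an annotated coding sequence. For AT5G19210 and AT5G67540 (distances of 4 and 83 bases) the first exon base is coding at only 1 of the 2 acceptors. In AT1G77810 it is coding at both, and the 9 bases between the acceptors keep the reading frame.

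Across the 127 genes, PSI at 25 °C was higher and lower than at 16 °C about equally often. The mean of the 3 warm days was at least 0.1 above the 16 °C value in 34 genes (26.8%) and at least 0.1 below it in 36 (28.3%), and lay within 0.1 in 57. Over all 638 events the shares were 28.5% higher and 29.0% lower, so neither direction stood out from the table as a whole. The median size of the difference was 0.107, against 0.113 over all events, and the largest was 0.38. PSI at 16 °C covered the whole scale, from 0.01 to 0.99 with a median of 0.46. Of the 127 genes, 23 had at least 1 value at or under 0.05 or at or over 0.95, where 1 isoform made up nearly all transcripts. Over all 638 events this held for 97.

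**Figure D1:**
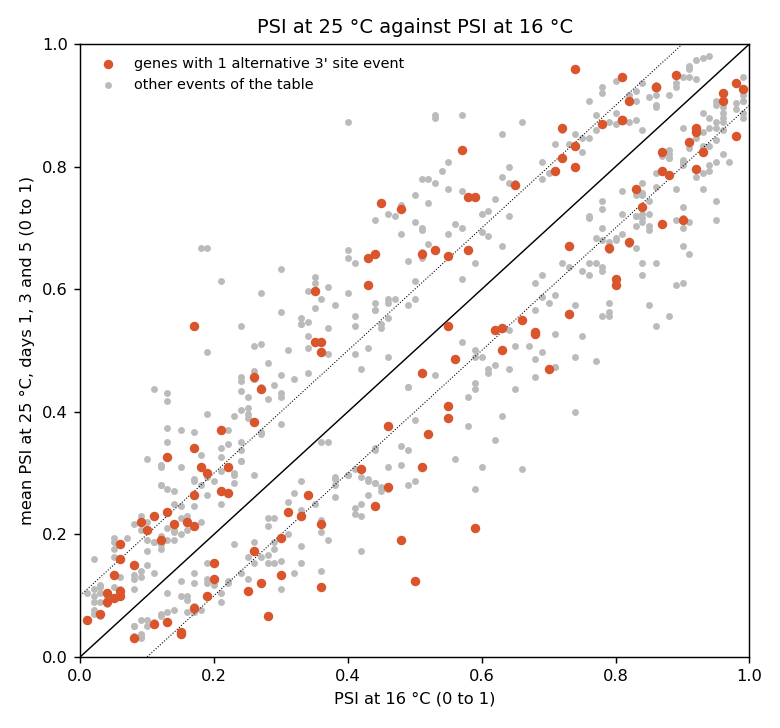
Mean PSI over days 1, 3 and 5 at 25 °C (vertical axis, 0 to 1) against PSI at 16 °C (horizontal axis, 0 to 1), 1 point per event, for the 127 genes with 1 alternative 3′ site event (orange) and the other 511 events of the table (grey). The solid line marks equal PSI and the dotted lines a difference of 0.1, outside or on which lie 34 of the 127 genes above and 36 below.

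Other event classes gave similar counts. Among 156 genes with 1 retained intron event, 40 were at least 0.1 higher and 51 lower, with a median size of 0.107. Among 72 genes with 1 alternative 5′ site event, 17 were higher and 20 lower, with a median size of 0.103. The 86 A3 events that were not selected had 23 higher and 24 lower, with a median size of 0.115.

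Large differences were found in both directions and in genes of unrelated function. VLN3, a villin that bundles and severs actin filaments, had PSI values of 0.15, 0.10 and 0.38 at 25 °C, against 0.59 at 16 °C. This was the largest mean difference (-0.38), but day 5 lay about midway between the other warm days and 16 °C. AT1G01910, a P-loop nucleoside triphosphate hydrolase, had 0.15, 0.13 and 0.09 at 25 °C, against 0.50 at 16 °C, with the 3 warm days close together and far under the cold value. The transcribed pseudogene AT2G46730 had 0.57, 0.52 and 0.53 at 25 °C, against 0.17 at 16 °C, the largest difference upwards (0.37). In AT3G63340, a type 2C protein phosphatase, PSI was 0.78, 0.72 and 0.72 at 25 °C, against 0.45 at 16 °C, so that the reference isoform was the minor one at 16 °C and the major one at 25 °C. The transcribed pseudogene AT3G46385 showed no spread over the warm days, at 0.19, 0.19 and 0.19 at 25 °C, against 0.48 at 16 °C.

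**Figure D2:**
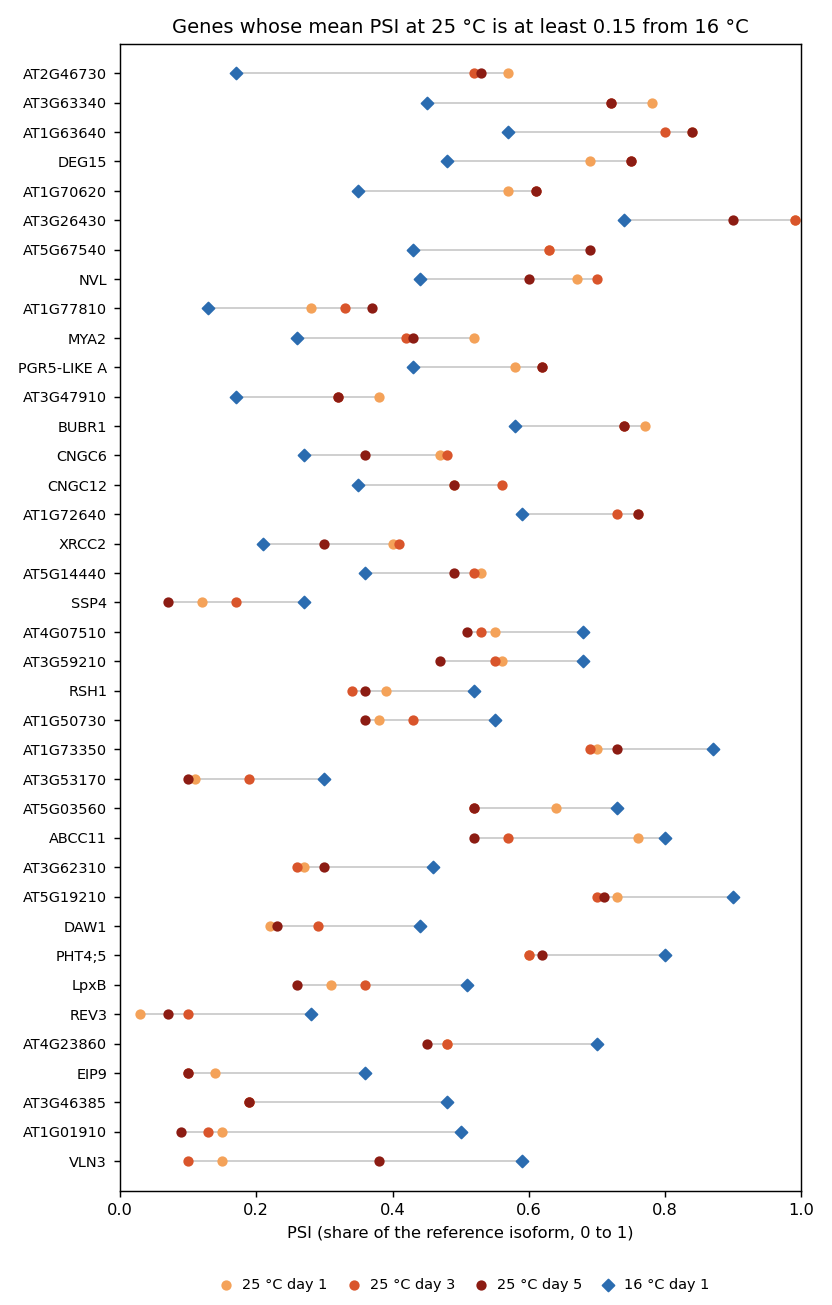
PSI (horizontal axis, 0 to 1) in each of the 4 groups for the 38 genes whose mean PSI over the 3 warm days was at least 0.15 from the 16 °C value, with days 1, 3 and 5 at 25 °C as circles of increasing darkness and 16 °C as blue diamonds. Points with equal values overlie each other; the warm days lie apart from the diamond in nearly all genes, and VLN3 and ABCC11 have the widest spread over the warm days.

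The difference from 16 °C kept its sign over the 3 days in nearly all genes. On day 1, 38 of 127 genes were at least 0.1 higher and 34 lower, against 191 and 197 of 638 events (29.9% and 30.9%). On day 3 there were 37 higher and 36 lower, against 205 and 177 events (32.1% and 27.7%). On day 5 there were 30 higher and 38 lower, against 177 and 183 events (27.7% and 28.7%). The sign was the same on all 3 days in 125 of 127 genes (98.4%, against 97.6% of all events). In 89 genes (70.1%, against 68.7% of all events) the gap between the 16 °C value and the nearest warm day was larger than the whole range of the warm days. These shares are near those of the table as a whole, and the 3 differences of a gene are tied to each other by their common 16 °C value.

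Day 5 was at least 0.1 away from day 1 in 10 of 127 genes, against 73 of 638 events (11.4%). Day 5 was nearer to 16 °C than day 1 in 6 of the 10 genes and further from it in 4. Over all 127 genes these counts were 57 nearer and 54 further, with 16 equal. Nearer and further were not counted over the 638 events, so these numbers describe the 127 genes only. VLN3 had the largest step back towards 16 °C. ABCC11, an ABC transporter of the multidrug resistance-associated type, moved the other way, with PSI of 0.76, 0.57 and 0.52 at 25 °C, against 0.80 at 16 °C. Day 1 was thus close to the cold value, and the difference was seen mainly on days 3 and 5. AT3G19780, a protein of unknown function with a thioredoxin fold, had 0.17, 0.25 and 0.29 at 25 °C, against 0.31 at 16 °C, which brought day 5 almost to the cold level. AT1G50910, also of unknown function, had 0.88, 0.76 and 0.76 at 25 °C, against 0.74 at 16 °C, with only day 1 more than 0.1 from the cold value. The long non-coding RNA AT5G05435 had 0.97, 0.94 and 0.87 at 25 °C, against 0.99 at 16 °C, each warm day being lower than the one before. The other members of this set, XRCC2, CNGC6, CLC-D, AT5G03560 and AT1G64430, are given with their functional groups.

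**Figure D3:**
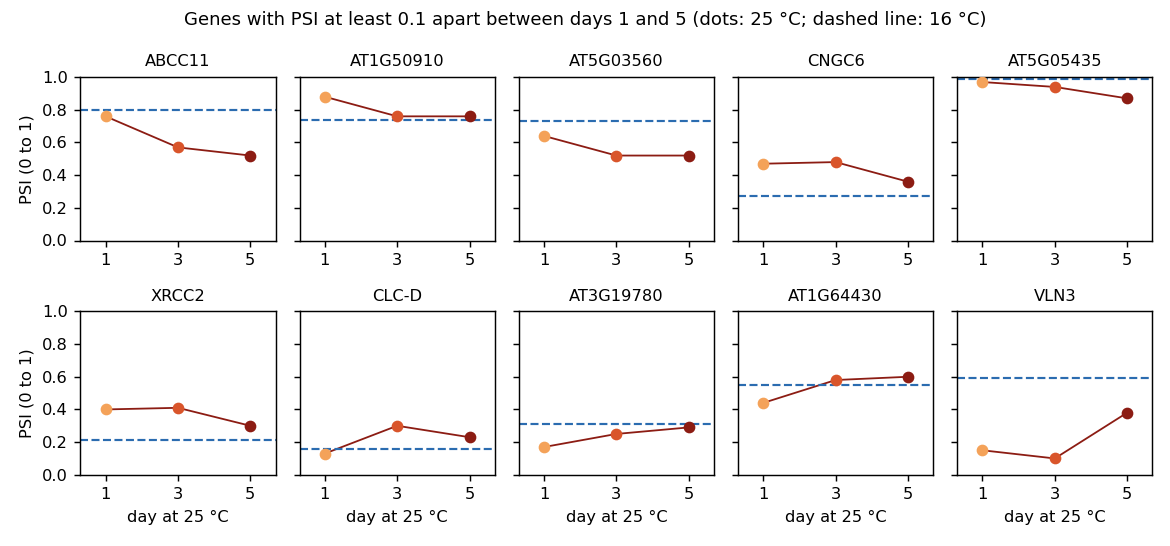
PSI (vertical axes, 0 to 1) on days 1, 3 and 5 at 25 °C (dots joined by lines, horizontal axes in days) in the 10 genes with day 5 at least 0.1 from day 1, 1 panel per gene, with the 16 °C day 1 value as a dashed blue line. Day 5 is nearer to the dashed line than day 1 in 6 panels and further from it in 4, and the warm values cross it in CLC-D and AT1G64430.

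In 13 genes (10.2%, against 9.87% of all events) all 3 warm days lay on the other side of 0.5 from the 16 °C value, so that the more abundant isoform was a different one. The reference isoform became the major one at 25 °C in AT1G70620, AT5G67540, NVL, AT2G46730, PGR5-LIKE A, AT3G63340 and DEG15. It became the minor one in AT4G23860, VLN3, AT5G27950, LpxB, AT1G50730 and RSH1.

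By function, the genes were placed in 9 groups from their annotation and a remainder of 31 genes of other or unknown function. The lists are small and were not tested, and their counts are to be read against the 28.5% higher and 29.0% lower of all events, of which 323 had a mean above and 315 below 16 °C. Of 16 metabolic enzymes, 12 had a mean above 16 °C, 7 were at least 0.1 higher and 2 lower, with a median difference of 0.077, against a median of -0.01 over the 127 genes and 0.03 over all events. AT3G26430, a GDSL-type lipase, had PSI of 0.99, 0.99 and 0.90 at 25 °C, against 0.74 at 16 °C, and the reference isoform was almost the only one on the first warm days. AT5G67540, annotated as an arabinanase, levansucrase or invertase, had 0.63, 0.63 and 0.69 at 25 °C, against 0.43 at 16 °C. AT1G77810, a galactosyltransferase family protein, had 0.28, 0.33 and 0.37 at 25 °C, against 0.13 at 16 °C, with the warm values stepping up day by day. SETH2, an enzyme of glycosylphosphatidylinositol anchor synthesis, had 0.90, 0.84 and 0.85 at 25 °C, against 0.72 at 16 °C. The Rossmann-fold protein AT1G72640 had 0.76, 0.73 and 0.76 at 25 °C, against 0.59 at 16 °C. AT5G21060, related to glyceraldehyde-3-phosphate and homoserine dehydrogenases, had 0.70, 0.64 and 0.63 at 25 °C, against 0.51 at 16 °C. In these 3 genes, as in AT3G26430, the reference isoform was already the major one in the cold. The oxidoreductase PDE327 had 0.23, 0.21 and 0.22 at 25 °C, against 0.09 at 16 °C. Opposite to them, LpxB, a glycosyltransferase annotated to lipid A synthesis, had 0.31, 0.36 and 0.26 at 25 °C, against 0.51 at 16 °C. F2KP, the bifunctional enzyme that makes and degrades the glycolytic regulator fructose-2,6-bisphosphate, had 0.82, 0.79 and 0.78 at 25 °C, against 0.92 at 16 °C.

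**Figure D4:**
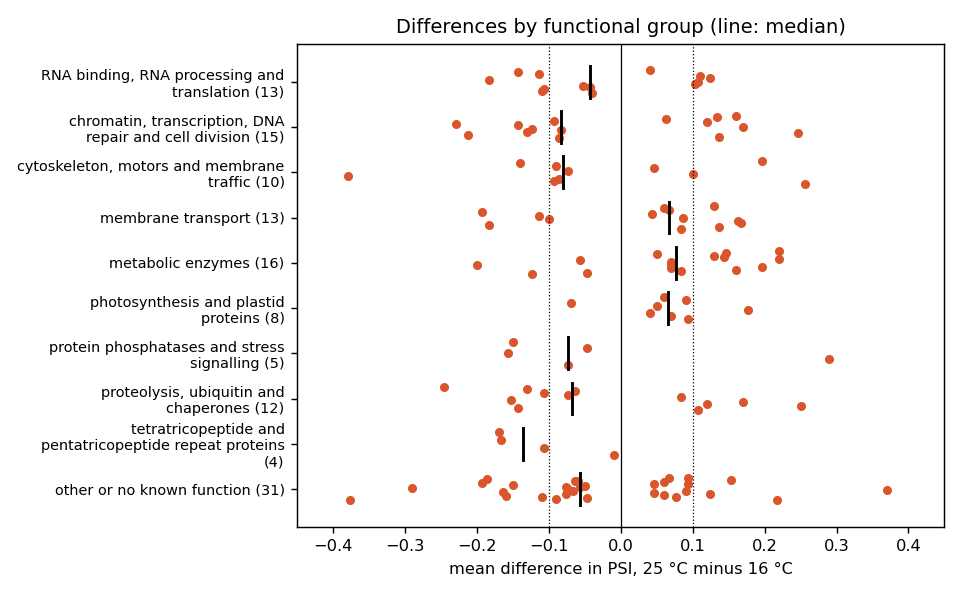
Mean difference in PSI, 25 °C minus 16 °C (horizontal axis), for each of the 127 genes as a point, by functional group with the number of genes in brackets. Black bars mark medians and dotted lines differences of 0.1. Right of 0 lie 7 of 8 genes of the photosynthesis and plastid group, 12 of 16 metabolic enzymes and 9 of 13 membrane transport genes. Left of it lie all 4 repeat proteins and 4 of 5 phosphatase and stress signalling genes.

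Among 8 genes for photosynthesis and plastid proteins, 7 had higher PSI on average at 25 °C but only 1 by 0.1 or more, and the median difference was 0.065. The group started low on the PSI scale, with a median of 0.19 at 16 °C, against 0.46 over the 127 genes. Whether direction and size go with function or with this starting level was not tested. The warm days of each gene lay within 0.04 of each other, and in all 8 the gap to 16 °C was larger than that range. PGR5-LIKE A, a thylakoid protein needed for cyclic electron flow around photosystem I, had 0.58, 0.62 and 0.62 at 25 °C, against 0.43 at 16 °C. The exception in direction was AT4G26555, an FKBP-like peptidyl-prolyl isomerase, with 0.84, 0.84 and 0.84 at 25 °C, against 0.91 at 16 °C (named after its values were seen). Further genes of plastid proteins stand in other groups, among them emb1138 and MSL2 with lower PSI and SIG4 with higher PSI.

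The 4 tetratricopeptide and pentatricopeptide repeat proteins all had lower mean PSI at 25 °C, 3 of them by 0.1 or more. Pentatricopeptide repeat proteins bind organelle RNA. AT5G03560 had 0.64, 0.52 and 0.52 at 25 °C, against 0.73 at 16 °C, with most of the difference on days 3 and 5. AT3G53170 had 0.11, 0.19 and 0.10 at 25 °C, against 0.30 at 16 °C, and AT3G49140 had 0.81, 0.82 and 0.84 at 25 °C, against 0.93 at 16 °C. For AT1G64430 the mean difference was only -0.01, because day 1 lay under the cold value and days 3 and 5 above it, at 0.44, 0.58 and 0.60 at 25 °C, against 0.55 at 16 °C.

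Of 15 genes for chromatin, transcription, DNA repair and cell division, 6 were at least 0.1 higher and 5 lower. AT1G70620, annotated as cyclin-related and with an assembled locus shared with ABCB26, had PSI of 0.57, 0.61 and 0.61 at 25 °C, against 0.35 at 16 °C. BUBR1, a component of the spindle assembly checkpoint, had 0.77, 0.74 and 0.74 at 25 °C, against 0.58 at 16 °C. XRCC2, a DNA repair gene, had 0.40, 0.41 and 0.30 at 25 °C, against 0.21 at 16 °C, with day 5 nearest to the cold value. All 3 had the warm days on the high side, as had AT1G58025, SIG4 and WRKY11. The bromodomain protein AT1G58025 had 0.51, 0.45 and 0.53 at 25 °C, against 0.36 at 16 °C. SIG4, a sigma factor for the plastid-encoded RNA polymerase, had 0.70, 0.64 and 0.65 at 25 °C, against 0.53 at 16 °C. The transcription factor WRKY11 had 0.78, 0.79 and 0.74 at 25 °C, against 0.65 at 16 °C. The other 5 genes had lower PSI. AT4G23860, a PHD finger protein, had 0.48, 0.48 and 0.45 at 25 °C, against 0.70 at 16 °C. REV3, the catalytic subunit of the translesion DNA polymerase zeta, had 0.03, 0.10 and 0.07 at 25 °C, against 0.28 at 16 °C, and the reference isoform, a minority in the cold, was nearly lost on day 1. AT3G63070, with a Tudor/PWWP/MBT domain, had 0.10, 0.11 and 0.11 at 25 °C, against 0.25 at 16 °C. The PHD finger protein AT1G77800, whose tandem acceptor is printed above, had exactly equal warm values, 0.50, 0.50 and 0.50 at 25 °C, against 0.63 at 16 °C. FRS2, of the FAR1-related family derived from a transposase, had 0.66, 0.77 and 0.57 at 25 °C, against 0.79 at 16 °C, with day 3 close to the cold value.

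Of 13 genes for RNA binding, RNA processing and translation, 4 were at least 0.1 higher and 5 lower, and none differed by more than 0.183. The RNA helicase AT3G62310 had 0.27, 0.26 and 0.30 at 25 °C, against 0.46 at 16 °C. Another helicase, emb1138 (RH3), a chloroplast DEAD-box protein that takes part in group II intron splicing, had 0.22, 0.22 and 0.21 at 25 °C, against 0.36 at 16 °C. AT5G26610, with a G-patch domain, had 0.33, 0.34 and 0.25 at 25 °C, against 0.42 at 16 °C. These 3 had lower PSI on every warm day, as had AT1G15280 and AT1G20880. AT1G15280, whose domain binds the exon junction complex helicase eIF4AIII in animals, had 0.55, 0.54 and 0.56 at 25 °C, against 0.66 at 16 °C. The RRM protein AT1G20880 had 0.22, 0.14 and 0.22 at 25 °C, against 0.30 at 16 °C. AT3G62840, a small nuclear ribonucleoprotein with an Sm-like fold and so related to the core of the spliceosome, had higher PSI, at 0.40, 0.37 and 0.38 at 25 °C, against 0.26 at 16 °C. RBP-DR1, an RNA-binding protein linked to defence, had 0.30, 0.30 and 0.30 at 25 °C, against 0.19 at 16 °C, without any spread over the warm days. The RRM protein AT3G12640 had 0.24, 0.20 and 0.18 at 25 °C, against 0.10 at 16 °C. The peptide chain release factor AT2G47020 had 0.65, 0.62 and 0.69 at 25 °C, against 0.55 at 16 °C.

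Membrane transport genes had 4 at least 0.1 higher and 4 lower of 13. The mean lay above 16 °C in 9 and below it in 4, with a median difference of 0.067. That median is the value of PDR2, 1 of the 9, whose event may lie in a neighbouring gene, as given at the end. The cyclic nucleotide-gated channels, which carry cations including calcium, were both higher. CNGC6 had 0.47, 0.48 and 0.36 at 25 °C, against 0.27 at 16 °C, and CNGC12 had 0.49, 0.56 and 0.49 at 25 °C, against 0.35 at 16 °C. In CNGC6 the last day was nearest to the cold value, whereas in CNGC12 days 1 and 5 were equal. The cation antiporters NHX8 and KEA5 were also higher, with 0.94, 0.96 and 0.94 at 25 °C, against 0.81 at 16 °C in NHX8. KEA5 had 0.36, 0.27 and 0.30 at 25 °C, against 0.18 at 16 °C. Lower PSI was found in ABCC11, given above, and in PHT4;5, AT4G22990 and MSL2. PHT4;5, a phosphate transporter, had 0.60, 0.60 and 0.62 at 25 °C, against 0.80 at 16 °C. AT4G22990, a major facilitator protein with an SPX domain, a module that senses phosphate status, had 0.24, 0.19 and 0.26 at 25 °C, against 0.33 at 16 °C. MSL2, a mechanosensitive channel of plastids, had 0.05, 0.02 and 0.04 at 25 °C, against 0.15 at 16 °C. The chloride channel family member CLC-D did not keep its sign, with 0.13, 0.30 and 0.23 at 25 °C, against 0.16 at 16 °C.

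Proteolysis, ubiquitin and chaperone genes had 4 higher and 5 lower of 12. DEG15, the peroxisomal processing protease, had 0.69, 0.75 and 0.75 at 25 °C, against 0.48 at 16 °C. AT3G47910, a ubiquitin hydrolase-related protein, had 0.38, 0.32 and 0.32 at 25 °C, against 0.17 at 16 °C. The Hsp40 chaperone AT3G17830 had 0.19, 0.28 and 0.22 at 25 °C, against 0.11 at 16 °C, and the rhomboid protease RBL6 had 0.21, 0.24 and 0.26 at 25 °C, against 0.13 at 16 °C. These rhomboid and Hsp40 genes had the smaller differences of the 4. Lower at 25 °C was EIP9, a DnaJ-domain protein, with 0.14, 0.10 and 0.10 at 25 °C, against 0.36 at 16 °C. The F-box protein AT3G59210 had 0.56, 0.55 and 0.47 at 25 °C, against 0.68 at 16 °C. The CAAX-type protease AT1G14270 had 0.66, 0.67 and 0.70 at 25 °C, against 0.82 at 16 °C. All 3 had every warm day under the cold value, as had AT5G44530 and CER9. The subtilase AT5G44530 had 0.89, 0.82 and 0.84 at 25 °C, against 0.98 at 16 °C. CER9, a RING-type ubiquitin ligase that affects cuticular wax, had 0.72, 0.75 and 0.73 at 25 °C, against 0.84 at 16 °C.

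Of 10 genes for the cytoskeleton, motors and membrane traffic, 3 were higher and 2, VLN3 and AT5G27950, lower. AT1G63640, a microtubule motor protein with a calponin homology domain, had 0.84, 0.80 and 0.84 at 25 °C, against 0.57 at 16 °C. MYA2, a class XI myosin that moves organelles along actin, had 0.52, 0.42 and 0.43 at 25 °C, against 0.26 at 16 °C. Its event may lie in an overlapping gene, as given at the end. ORP2B, an oxysterol-binding-related protein, had 0.19, 0.17 and 0.12 at 25 °C, against 0.06 at 16 °C. The microtubule motor protein AT5G27950 had 0.42, 0.41 and 0.40 at 25 °C, against 0.55 at 16 °C. Motor proteins thus stood on both sides. Of the 5 protein phosphatases and stress signalling genes, AT3G63340 was higher and RSH1 and SSP4 lower. RSH1, a RelA/SpoT homologue of guanosine tetraphosphate signalling, had 0.39, 0.34 and 0.36 at 25 °C, against 0.52 at 16 °C. SSP4, a phosphatase of the SCP1 type, had 0.12, 0.17 and 0.07 at 25 °C, against 0.27 at 16 °C.

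In the remainder of 31 genes, 4 were higher and 8 lower. NVL, a relative of the vascular patterning gene NO VEIN, had 0.67, 0.70 and 0.60 at 25 °C, against 0.44 at 16 °C. AT5G14440, a Surfeit locus 2 protein, had 0.53, 0.52 and 0.49 at 25 °C, against 0.36 at 16 °C. AT1G55040, a Ran-binding type zinc finger protein, had 0.16, 0.26 and 0.13 at 25 °C, against 0.06 at 16 °C, with the highest value on day 3. On the low side, DAW1, a WD40 repeat protein, had 0.22, 0.29 and 0.23 at 25 °C, against 0.44 at 16 °C. AT5G19210, a P-loop hydrolase annotated with helicase activity, had 0.73, 0.70 and 0.71 at 25 °C, against 0.90 at 16 °C. The ankyrin repeat protein AT1G73350 had 0.70, 0.69 and 0.73 at 25 °C, against 0.87 at 16 °C. These 3 were apart from 16 °C on each day by more than their own range, as were AT1G50730, AT4G07510 and AT1G24265. AT1G50730, of unknown function, had 0.38, 0.43 and 0.36 at 25 °C, against 0.55 at 16 °C. AT4G07510, annotated as a pseudogene, had 0.55, 0.53 and 0.51 at 25 °C, against 0.68 at 16 °C. AT1G24265, with a domain of unknown function, had 0.06, 0.03 and 0.03 at 25 °C, against 0.15 at 16 °C. AT4G07510, AT2G46730, AT3G46385 and AT5G05435 were the 4 genes without annotation text in the table, and the other 123 genes are protein-coding in RefSeq.

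Annotated acceptor pairs of the 127 genes were closer together than those of other genes in the table. The 82 genes had 140 pairs with a median distance of 11 bases, against 26 bases for the pairs of other table genes and 17 bases over all intron-containing coding genes of the reference. A distance of 3 bases made up 26.4% of the pairs (37), against 13.5% in other table genes, 5.0% in genes with 1 retained intron event and 15.8% over all coding genes. With coding exons only, these shares were 40.5%, 18.5%, 2.38% and 21.4% in the same order. No test was made of this, since the rule picked genes by this kind of event. In the 37 tandem pairs the base before the second AG was C in 27 (73.0%), T in 8 (21.6%), A in 2 (5.41%) and never G. In the 619 tandem pairs of other genes in the reference these shares were 53.5% C, 15.0% T, 26.0% A and 5.49% G. Tandem means here the letters AGNAG on the strand of the gene, with both AG used as annotated acceptors.

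**Figure D5:**
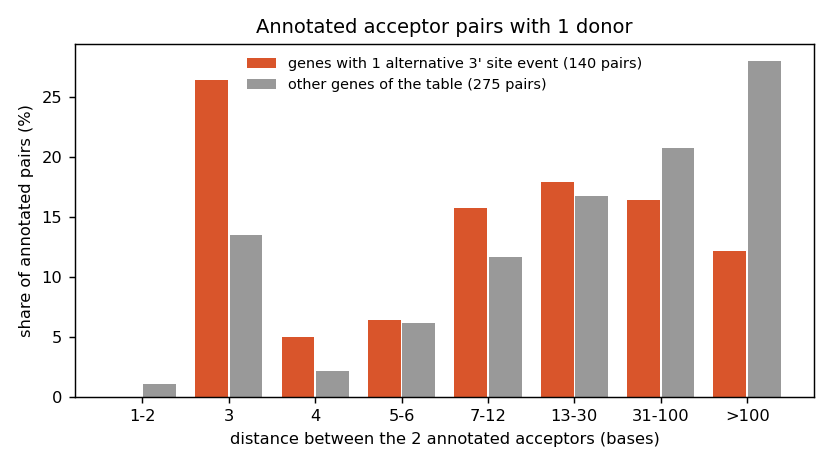
Share of annotated acceptor pairs (vertical axis, %) by distance between the acceptors of 1 donor (horizontal axis, bases), for 140 pairs of the genes with 1 alternative 3′ site event (orange) and 275 pairs of the other genes in the table (grey). The 3-base class holds 26.4% of the orange and 13.5% of the grey pairs, and the class over 100 bases 12.1% and 28.0%.

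Both directions occurred in each of 3 distance classes among the 51 genes with exactly 1 pair, and the median size of the difference did not follow the distance. Of 21 genes with a tandem pair, 6 were at least 0.1 higher and 6 lower, with a median size of 0.11 and none beyond 0.193. Of 17 genes with a pair 4 to 30 bases apart, 7 were higher and 5 lower, with a median size of 0.137 and a largest of 0.197. Of 13 genes with a pair over 30 bases apart, 2 were higher and 6 lower, with a median size of 0.113 and a largest of 0.377. PSI at 16 °C ran from 0.17 to 0.88 in the tandem group, so both isoforms were present in the cold in all of them. By place, 33 of the 51 pairs were coding in both isoforms (11 higher, 8 lower), and 26 of those 33 kept the reading frame. The 5 genes with a pair in the 3′ UTR had 0 higher and 4 lower, the 4 with a pair in the 5′ UTR had 1 higher and 1 lower, and the 6 coding in 1 isoform had 2 higher and 3 lower. Beside the 28.5% higher and 29.0% lower of all events, these classes of 4 to 6 genes at candidate places allow no reading of a direction.

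For 6 of the 127 genes the assembled locus also carried a row of another gene, so the event may belong to a neighbour. XIH, a class XI myosin, had the same 4 values as AT4G28706, which overlaps it on the same strand. They were 0.49, 0.50 and 0.47 at 25 °C, against 0.56 at 16 °C. Only AT4G28706 has annotated acceptor pairs (2, against 0 in XIH). MYA2 and AT5G43910, which also overlap on the same strand, differed by at most 0.01, and AT5G43910 has 3 annotated pairs against 0 in MYA2. PDR2, a P-type ATPase of the phosphate starvation response, and AT5G23610, which encodes a DYAD-like protein, are both among the 127 genes and share 0.90, 0.86 and 0.87 at 25 °C, against 0.81 at 16 °C. Of these, AT5G23610 has 1 annotated pair and PDR2 none. AT1G70620, with 2 annotated pairs, differed by at most 0.01 from a row of the transporter gene ABCB26, which has none. AT4G07510 shared its locus with a retained intron event of AT4G07507, which had other values. In RefSeq, 44 of the 127 genes overlap another gene, 10 of them on the same strand.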

How the data were processed

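RNA-seq libraries of 12 samples (TruSeq Stranded mRNA, per the labels) were processed by the authors before deposition. Per their methods, reads were mapped to TAIR10 with TopHat2 and transcripts assembled with Cufflinks and merged with Cuffmerge; the submitters' processing notes name TopHat, Cufflinks and TAIR10, without versions. Events were listed with the authors' own scripts, filtered on isoform-specific reads and replicate spread, and quantified with MISO. The deposited table holds PSI as a fraction with 2 decimals, 1 value per group from merged replicates, so the depth per sample is unknown. A further column, which marks the days on which the authors called an event, was not used.

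Differences (25 °C minus 16 °C) and their mean over 3 days were computed with Python 3.11.15, pandas 2.3.3 and numpy 2.4.6, and drawn with matplotlib 3.10.9. The design planned a test across samples, which pooled values do not allow. A mean difference of at least 0.1 was counted, and shares of all 638 events are given beside the main counts over all 127 genes. Genes with such a difference were named within their functional group, as were those with day 5 at least 0.1 from day 1, a change of sign, a shared locus or no annotation text. All 127 genes were found by locus tag in the RefSeq annotation (TAIR10.1), and all 123 coordinates in the table fell inside the gene of that name. Acceptor pairs were introns sharing a donor, and sequences span 20 bases before to 3 after an acceptor. Scripts were tested on simulated data. The genes and lists were chosen with earlier results of these data known, and the classes by acceptor distance, the base between tandem acceptors and the change of side at 0.5 were added after seeing the data.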

Additional observations from a re-analysis of the deposited data

Results flagged for a closer look

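In 2 of the 127 genes the difference from 16 °C was not of one sign. In AT1G64430, a pentatricopeptide repeat protein, it was -0.11 on day 1, 0.03 on day 3 and 0.05 on day 5. In CLC-D (AT5G26240), of the chloride channel family, it was -0.03 on day 1, 0.14 on day 3 and 0.07 on day 5. Whether the days differ was not tested, because each has 1 pooled value and all are set against the same 16 °C value.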

How the results depend on the processing

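Counts depended mainly on the size of difference required. With 0.05 in place of 0.1, 57 of the 127 genes were higher and 58 lower at 25 °C, and with 0.2 there were 8 higher and 7 lower. Shares of all events were not counted at 0.05 or 0.2, and those given in the results hold for 0.1 only. The counts at 0.05 and 0.2 thus describe the 127 genes only and cannot be set against the whole table. The share of acceptor pairs 3 bases apart was 40.5% with coding exons only, against 26.4% with all introns: 34 of the 37 such pairs are coding, but only 84 of all 140 pairs. Using the median of the warm days, leaving out each warm day in turn, counting a shared event once, leaving out PSI near 0 or 1 at 16 °C or the gene entry with an isoform suffix gave 32 to 36 genes higher and 34 to 38 lower. None of 280 alternative values of the 70 genes past 0.1 reversed its sign. This was fixed in advance, since each of these genes had the same sign on all 3 days. On the log2 odds scale the median size was 1.03, against 1.04 over all events. Without the 6 genes whose assembled locus carries another gene, an alternative chosen after seeing the data, 32 were higher and 35 lower. No paired analysis was possible because the table holds 1 pooled value per group, and for the same reason leaving out single replicates was not run. The authors filtered events on a minimum of isoform-specific reads and on the spread between replicates, but the reads and the replicate values behind each PSI are not in the table, so no error can be given for a single difference.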

Other observations

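Gene structure of the 127 genes was close to that of the other genes in the table. The median gene length was 3465 bases, against 3443 in other table genes and 2342 over all intron-containing coding genes of the reference. The median number of introns was 10, against 10 and 4, and the median number of annotated transcripts was 3, against 3 and 1. GC content had a median of 38.5%, against 38.3% and 38.5%. For acceptor pairs over 30 bases apart, the 18 bases before the AG held a median of 61.1% C or T at the upstream and 66.7% at the downstream acceptor in the 127 genes (40 pairs), against 61.1% at both in other genes of the reference (1488 pairs). The share can only change in steps of whole bases out of 18, and some pairs of a gene share an acceptor. The contrast was not tested.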
